A study of Mus musculus with 6 samples.

Results

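The genes described here encode enzymes that make serine, move its carbon through folate, and make proline. They are 10 genes listed by name: Phgdh, Psat1 and Psph of serine synthesis, Shmt1, Shmt2, Mthfd1, Mthfd2 and Mthfd1l of one-carbon metabolism, and Aldh18a1 and Pycr1 of proline synthesis. Their members were all probe sets that the array annotation assigns to exactly 1 gene, that gene being one of the 10. These were 25 probe sets on the MOE430A array and 2 on MOE430B, 27 in all, and they measured 9 of the 10 genes, of 18194 genes measured on either design. For Pycr1 there was no probe set naming it alone, and it has no value below. Another 2 probe sets of MOE430A that name Phgdh together with a second gene were left out.

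The cells were 10 T1/2, an established line of mouse embryonic fibroblasts, here untreated and with no genetic change named in the labels. They grew in DMEM supplemented with 10% FBS until 80% confluency. RNA of 3 samples, which the labels number 1, 4 and 5, was each put on 1 MOE430A and 1 MOE430B array, so there were 6 arrays and 1 group. The labels give no second condition, so no test between groups was possible and no p-value is given. Whether the 3 came from different culture dishes is not stated, and their spread may therefore be technical only. The precision of every value is limited by the number of arrays.

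Signals are MAS5 intensities on a linear scale in arbitrary units, and each array had been scaled on its own. A probe set was called detected when it exceeded the background limit of its array in all 3 samples. The limit was the 95th percentile of the probe sets of a list of genes restricted to other tissues. In samples 1, 4 and 5 it was 1358, 1548 and 1048 on MOE430A. On MOE430B, where it rested on 12 probe sets, it was 2573, 1779 and 1599. The limit was thus lowest in sample 5 on both designs, so a signal could pass there and fail at the same level in another sample. A gene was called detected when any of its probe sets was. Levels of different genes are not compared, because probe sets differ in how brightly they bind. Of 10 fibroblast markers 8 were detected on MOE430A, among them Col1a1, Col1a2 and Vim, and none of the 4 endothelial, 4 leukocyte, 4 muscle, 3 measured adipocyte or 4 epithelial markers was detected there. On MOE430B 1 epithelial marker, Epcam, was detected. That call rested on 1 probe set, of a kind able to bind more than 1 transcript, with 31382, 139544 and 29693 in samples 1, 4 and 5. The Epcam probe set of MOE430A read 47.4, 39.1 and 39.5, far below the limit.

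Serine is made from the glycolytic intermediate 3-phosphoglycerate in a short chain of steps and is then split by serine hydroxymethyltransferases, which pass a carbon to folate and leave glycine. Folate-bound carbon is used to build purines and thymidylate, and the same reactions run in parallel in the cytosol and in mitochondria. Proline is made from glutamate by a separate route, and fibroblasts need much proline and glycine because collagen is rich in both. Atf4, a transcription factor induced when amino acids are short or protein folding is disturbed, is known to activate many of these genes.

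All 8 members measured on MOE430A read highest in sample 5, and so did both members measured on MOE430B. Of the 8, 6 were detected: Phgdh, Psat1, Shmt2, Mthfd1, Mthfd2 and Aldh18a1. Among all 12394 genes of MOE430A, 26.9% were detected by the same rule. Psph and Shmt1 were not detected on MOE430A, and neither Psph nor Mthfd1l was detected on MOE430B, where 25.6% of genes were. The 6 detected genes rested on 9 of the 25 probe sets, beside 21.3% detected of all single-gene probe sets of the array. Only 2 of these, of Mthfd1 and Mthfd2, have names that do not end in _s_at or _x_at, endings that mark probe sets able to bind more than one transcript. When most of a gene's probe sets had to be detected, only Phgdh was.

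**Figure D1:**
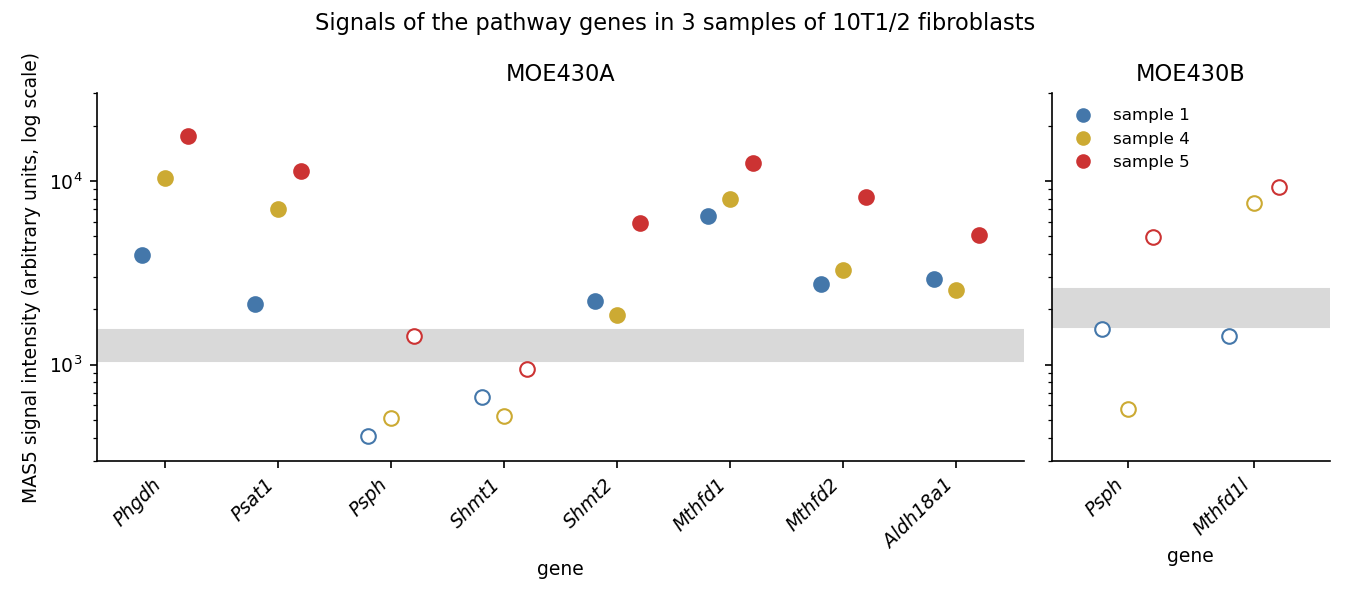
MAS5 signal (arbitrary units, log scale) of each measured member in samples 1, 4 and 5, by its detected probe set of highest signal or its brightest one, with the 2 array designs apart. Filled points are detected genes, open points genes not detected, and the grey band spans the background limits of the 3 arrays. Sample 5 is the highest point for every gene on both designs, at 17618 for Phgdh against 3958 and 10349 in samples 1 and 4.

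Phgdh, the dehydrogenase that commits 3-phosphoglycerate to serine, read 3958, 10349 and 17618 in samples 1, 4 and 5 (mean 10641 ± 6835, SD, n = 3). The highest sample was thus 4.45-fold above the lowest, and no pair of samples lay closer than 1.70-fold. All 4 of its single-gene probe sets were detected, and all 4 put the samples in the same order, with sample 5 between 1.87-fold and 4.45-fold above sample 1. The step from sample 4 to sample 5 was less even, from 1.09-fold to 1.77-fold across the 4 probe sets. All 4 have names ending in _x_at, and both probe sets left out for naming a second gene also name Phgdh.

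Psat1 encodes the aminotransferase that follows Phgdh in the chain. Its detected probe set read 2139, 7054 and 11362 in samples 1, 4 and 5 (mean 6851 ± 4615, SD, n = 3), a 5.31-fold range and the widest among the detected members on MOE430A. Sample 1 stood far below the other two, and sample 5 was 1.61-fold above sample 4. The other probe set of Psat1 read 482, 2971 and 3615, with sample 1 again the lowest and here below the limit.

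Psph, the phosphatase of the last step, read 408, 509 and 1441 on MOE430A and exceeded the limit in sample 5 only. The same probe set is also on MOE430B, where it read 1567, 576 and 4927. Sample 5 was the highest on both arrays and the only sample above the limit on either. Its 1441 on MOE430A passed the limit of its own array, 1048, but lay below that of sample 4, 1548. Samples 1 and 4 lay below their limits on both designs, so no fold and no order between them is given.

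In the cytosol, Mthfd1 is the enzyme of 3 activities that interconverts the folate forms carrying the carbon unit. Its detected probe set read 6452, 7992 and 12469 in samples 1, 4 and 5 (mean 8971 ± 3126, SD, n = 3), a 1.93-fold range. By 1 probe set per gene, that was the narrowest range among the detected members. The other 2 probe sets were not detected and also read highest in sample 5. The brighter of them read 620, 1197 and 3610 and exceeded the limit in sample 5 only. Set against the limit of the array of sample 1, its sample 5 was at least 2.66-fold higher, so the rank depends on the probe set. Shmt1, the cytosolic serine hydroxymethyltransferase, was not detected by any of its 4 probe sets. Its brightest read 664, 526 and 952, and only 1 of the 4 exceeded the limit in any sample, with 1391 in sample 5. That value lay below the limit of the array of sample 4, 1548.

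In mitochondria, serine is split by Shmt2, and Mthfd2 and Mthfd1l carry the unit on to formate. Shmt2 read 2219, 1875 and 5892 (mean 3329 ± 2227, SD, n = 3) in samples 1, 4 and 5, so samples 1 and 4 lay close together and sample 5 stood 3.14-fold above the lower of them. Its other 3 probe sets were below the limit in at least 2 samples. In 2 of those sample 5 was again the highest, and in the other samples 1 and 5 were level, at 1137 and 1134.

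Mthfd2, an enzyme known for its high level in proliferating and embryonic cells, read 2734, 3272 and 8214 (mean 4740 ± 3021, SD, n = 3). Sample 5 was 3.01-fold above sample 1 and 2.51-fold above sample 4, while samples 1 and 4 differed by 1.20-fold. The second probe set of Mthfd2 was not detected. It read 755, 1152 and 3950, again highest in sample 5, and exceeded the limit in that sample only. Neither probe set has an ending that marks binding of several transcripts.

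Mthfd1l, the mitochondrial synthetase that releases formate, was measured on MOE430B only, by 1 probe set, with 1434, 7623 and 9284 in samples 1, 4 and 5. It exceeded the limit in samples 4 and 5 and lay below it in sample 1, so it did not count as detected. Set against the limit of the array of sample 1, in place of its signal, sample 4 was at least 2.96-fold and sample 5 at least 3.61-fold higher, and sample 5 was 1.22-fold above sample 4.

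Aldh18a1 makes the intermediate from glutamate that Pycr1 then reduces to proline. Its detected probe set read 2917, 2563 and 5106 in samples 1, 4 and 5 (mean 3529 ± 1377, SD, n = 3), with sample 5 1.99-fold above sample 4. The other 4 probe sets were not detected. Of these, 3 also had sample 5 highest, and the remaining one was nearly flat, at 715, 804 and 739. The brightest of the 3 read 1213, 2222 and 4350, lowest in sample 1, and exceeded the limit in samples 4 and 5. Set against the limit of the array of sample 1, its sample 5 was at least 3.20-fold higher.

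The promoters of the 10 genes, taken from RefSeq (GRCm38.p6) as the 250 bases before each annotated start, were searched on both strands for TGATGNAA, the core of the element that Atf4 binds, and for CACGTG, the E-box bound by Myc and related factors. The 10 genes had 11 such windows, since Psat1 has 2 starts. A match was found in 2 windows, and both, of the proline genes, are printed to show where it lies. The window of Aldh18a1 (chr19:40588464-40588713, minus strand) holds CACGTG with its first base 59 bases before the start, and that of Pycr1 (chr11:120643749-120643998, minus strand) holds TGATGCAA with its first base 103 bases before the start. The matches are in capitals.
Aldh18a1: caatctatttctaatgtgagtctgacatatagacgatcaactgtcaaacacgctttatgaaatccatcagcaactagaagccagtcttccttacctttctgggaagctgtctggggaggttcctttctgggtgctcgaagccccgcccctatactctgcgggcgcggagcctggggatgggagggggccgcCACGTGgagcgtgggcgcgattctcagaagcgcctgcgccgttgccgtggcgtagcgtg
Pycr1: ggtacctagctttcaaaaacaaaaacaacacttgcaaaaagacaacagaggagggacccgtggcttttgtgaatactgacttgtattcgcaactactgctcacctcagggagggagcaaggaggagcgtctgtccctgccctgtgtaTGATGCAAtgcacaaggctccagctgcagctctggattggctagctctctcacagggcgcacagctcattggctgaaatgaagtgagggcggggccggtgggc
Over all 32851 windows of the table, 6.02% held CACGTG and 3.45% held TGATGNAA. The other windows of the members did not hold these letters. The only window of Mthfd2 belongs to a start 8407 bases inside the annotated gene, and those of Mthfd1, Psph and Mthfd1l to starts 826, 190 and 183 bases inside, so the outermost starts of these genes were not searched. The arrays do not measure binding at any of these places.

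Seen by sample, the chosen probe sets of the members differed in where sample 4 stood. For Phgdh and Psat1 sample 4 lay well above sample 1, by 2.61-fold and 3.30-fold, and sample 5 above both. For Mthfd1 and Mthfd2 samples 1 and 4 lay within 1.24-fold of each other, and for Shmt2 and Aldh18a1 sample 4 was slightly the lower of the pair, by 1.18-fold and 1.14-fold. These differences rest on 1 probe set per gene. Over all probe sets the ratio of sample 4 to sample 1 ran from 1.60 to 2.61 for Phgdh, and its highest value was 1.93 for Mthfd1, 2.09 for Shmt2 and 2.07 for Aldh18a1, so the ranges overlapped, although each of these last 3 values came from a probe set that was below the limit in sample 1 and in sample 4. Of the 5 probe sets of Aldh18a1, 4 were lowest in sample 1. With sample 1 left out, 2 of the 6 detected members still differed by at least 2-fold, Mthfd2 and Shmt2. With sample 5 left out, 2 did so, and these were Phgdh and Psat1.

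**Figure D2:**
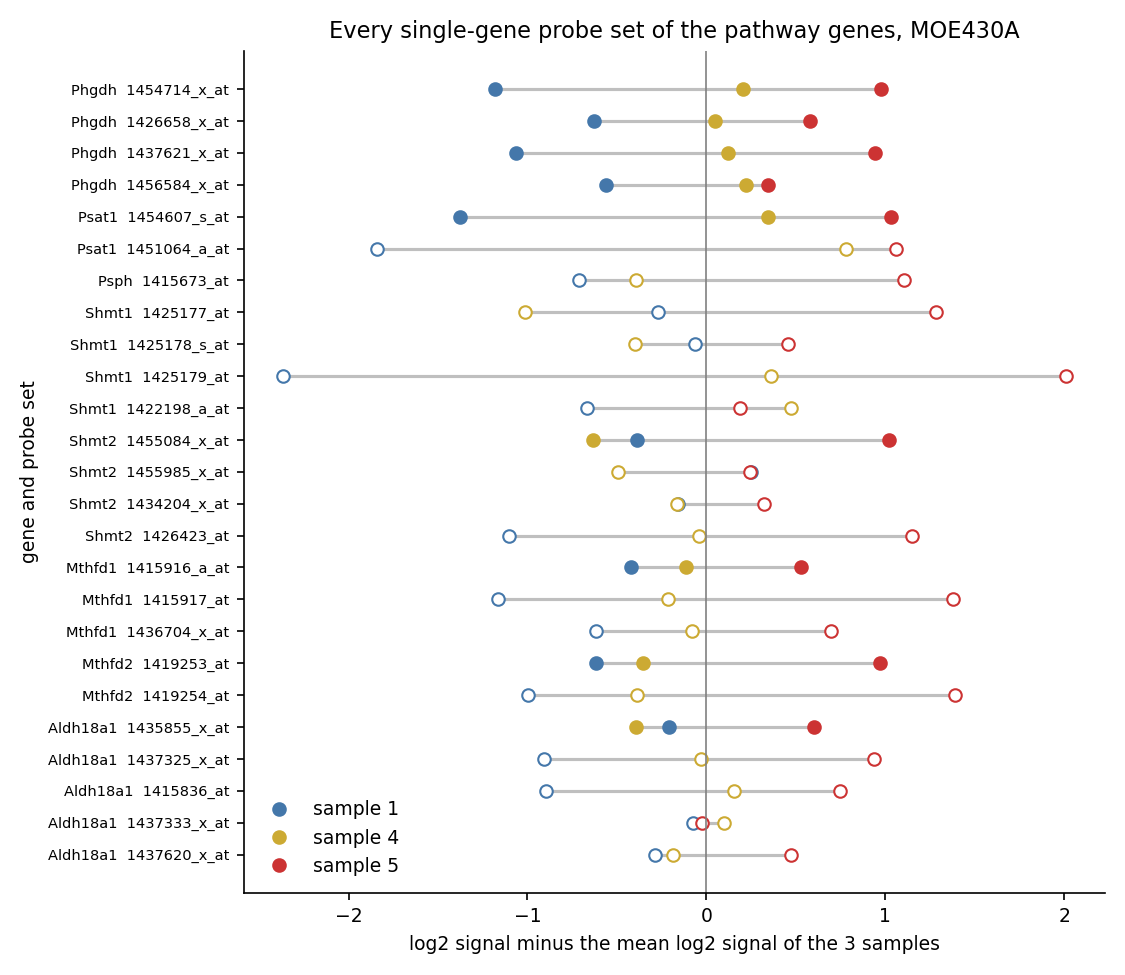
Log2 signal of each of the 25 member probe sets of MOE430A in samples 1, 4 and 5, less the mean log2 signal of the 3 samples, with grey lines from the lowest to the highest sample. Filled points are detected probe sets and open points those not detected. Sample 5 is farthest right in 22 of the 25 rows, and sample 1 farthest left in 19. For the latter no share over the whole array is given.

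Probe sets of 1 gene share the same RNA and array and are not replicates. Of the 25 on MOE430A, 22 read highest in sample 5, where 30.3% of the 20393 single-gene probe sets of the array did. The exceptions were 1 probe set each of Aldh18a1, Shmt1 and Shmt2, and all 3 were not detected. Sample 5 was the lowest in 0 of the 25. No share over the whole array stands beside that count, so how unusual it is cannot be said. Of the 11 member probe sets whose names do not end in _s_at or _x_at, 10 read highest in sample 5. Of the 16 not detected, 13 did.

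The same held against genes rather than probe sets. Sample 5 was highest for 6 of the 6 detected members and for 8 of the 8 measured ones on MOE430A, beside 32.0% of all detected genes and 29.0% of all measured ones. The plan did not name sample 5 in advance as the sample to compare. These shares, and that of the probe sets, are therefore a description only. Sample 5 was at least 2-fold above the geometric mean of samples 1 and 4 for Phgdh, Psat1, Shmt2 and Mthfd2 among the 6, where 5.65% of the 3330 detected genes were. The median log2 difference of sample 5 from samples 1 and 4 was 1.46 over the 6 detected members and -0.10 over all detected genes. The corresponding medians of the members were -0.78 in sample 1 and -0.35 in sample 4. A highest-to-lowest ratio of at least 2 was found for 4 of the 6, beside 24.7% of detected genes. On MOE430B, where 32.5% of measured genes were highest in sample 5, both measured members were.

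**Figure D3:**
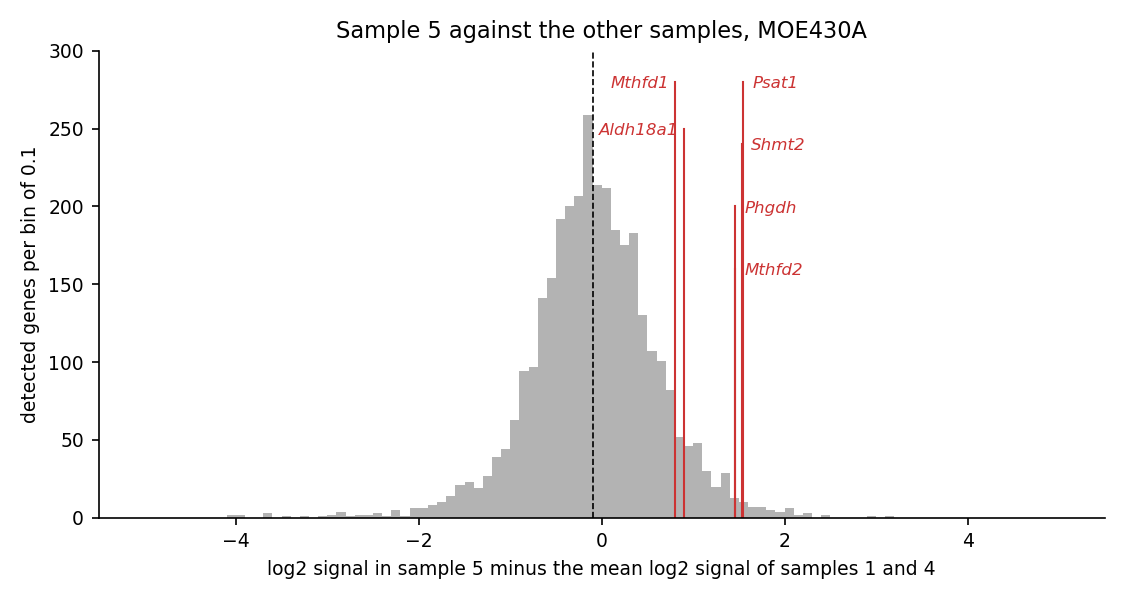
Histogram over the 3330 detected genes of MOE430A of the log2 signal in sample 5 minus the mean log2 signal of samples 1 and 4, in bins of 0.1, with the 6 detected members as red lines (line height has no meaning) and the median of all detected genes, -0.10, as a dashed line. The members lie between 0.80 for Mthfd1 and 1.55 for Psat1, all to the right of that median.

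Several other measures moved with the same samples. The 3' to 5' signal ratio of Gapdh, a measure of how complete the labelled RNA was, was 24.7, 15.0 and 10.6 in samples 1, 4 and 5 on MOE430A and 23.4, 14.0 and 11.5 on MOE430B. That of beta-actin was 17.5, 9.57 and 8.68 on MOE430A and 20.2, 8.23 and 10.8 on MOE430B, so sample 1 had the highest ratio each time. The lowest of all these ratios was 8.23, so the 3' signal far exceeded the 5' signal on all 6 arrays, not in sample 1 alone. The summed signal of the 10 fibroblast markers on MOE430A was 374631, 401386 and 175290, lowest in sample 5, and none of the 10 read highest there. Bright probe sets weigh most in that sum, and Col1a2 alone gave 183221, 161044 and 43699. The median log2 difference of sample 5 over the 10 was -1.70, but Vim and Prrx1 were lowest in sample 1 and Dcn in sample 4. For Prrx1 the designs differed, since its detected probe set on MOE430B read 31363, 25376 and 10064, lowest in sample 5. The 3 measured adipocyte markers summed to 797, 947 and 3066, of which Fabp4 alone gave 2991 in sample 5, while Adipoq and Pparg were lowest there. The MOE430A array of sample 5 was run on another fluidics station than the other arrays, and the run records put all MOE430B arrays on 1 station. The part of any of these in the pattern was not tested, and with 1 sample on it the second station and sample 5 cannot be told apart on MOE430A.

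Psat1 was the detected member of widest range on MOE430A, and the genes most like it were sought by the distance between log2 signals centred on the mean of the 3 samples. Over 3 samples, the 5 nearest of 3329 other detected genes were Usp1, Alcam, Pcna, Rrm2 and Lgals3, at distances from 0.08 to 0.18. Pcna, the sliding clamp of DNA replication, read 3033, 9244 and 16979 in samples 1, 4 and 5, and Rrm2, a subunit of ribonucleotide reductase, read 3826, 13521 and 18499. Phgdh was the 7th nearest, at 0.25. The other detected members ranked between 172 for Mthfd2 and 697 for Aldh18a1, since their samples 1 and 4 lay closer together. With 3 samples few shapes are possible, so this likeness is a description only.

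Other genes of the same metabolism were followed in 5 lists, 75 genes in all. Of 23 other folate and one-carbon genes 20 were measured and 7 detected. On MOE430A 4 of 14 were detected, and their median log2 difference of sample 5 from the other samples was 0.19. Gart, which builds the purine ring with folate-borne carbon, read 2612, 2886 and 4674 in samples 1, 4 and 5. Fpgs, which adds glutamate tails that keep folate in the cell, read 2699, 2811 and 1624 and was lowest in sample 5.

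On MOE430B 4 of 10 folate genes were detected, and all 4 read highest in sample 5, beside 34.4% of detected genes of that design. They were Aldh1l2, Atic, Gart and Mthfd2l, named after their values were seen. Aldh1l2, a mitochondrial folate enzyme, read 4714, 14938 and 23620, and Atic, of the last steps of purine synthesis, 17638, 26959 and 52320. Slc25a32, the mitochondrial folate carrier, was not detected and read 129, 2092 and 1831. Tyms, which makes thymidylate, was not detected on either design, and its MOE430A signals of 139, 139 and 28.4 lay far below the limit.

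**Figure D4:**
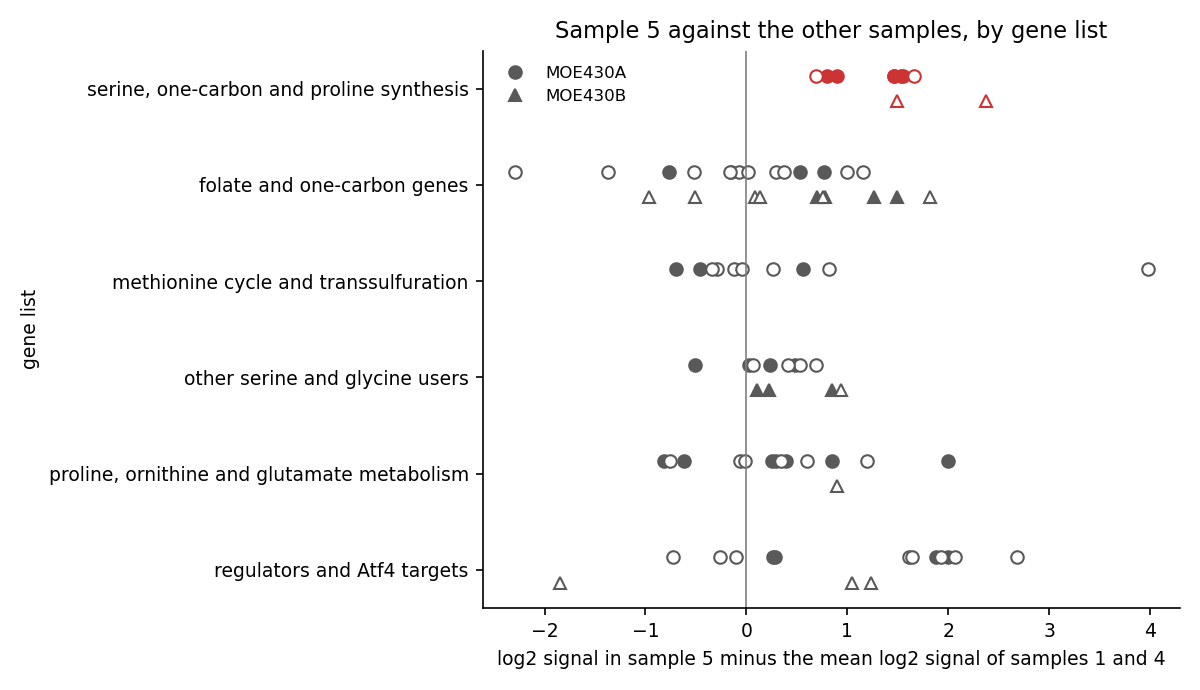
Log2 signal in sample 5 minus the mean log2 signal of samples 1 and 4 for each measured gene, by list, with circles for MOE430A and triangles for MOE430B, filled where the gene was detected. The serine, one-carbon and proline genes (red) all lie above 0, at 0.69 or more, and each of the other lists has genes on both sides of 0. Among detected genes alone, the 4 regulators and Atf4 targets also all lie above 0, from 0.26 for Nfe2l2 to 1.99 for Asns. The same holds on MOE430B for the 4 detected folate genes and the 3 detected users of serine and glycine.

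The methionine cycle takes up one-carbon units to regenerate methionine, and transsulfuration turns its homocysteine and serine into cysteine. Of 12 genes 10 were measured, all on MOE430A, and 3 were detected. Ahcy, which releases homocysteine, read 4314, 8337 and 8832 in samples 1, 4 and 5. Ahcyl1 (6543, 8412 and 4571) and Mtap (72972, 48671 and 43466) were lowest in sample 5, and the list's detected median was -0.46. Cbs was not detected, at 834, 1024 and 851. Cth, which releases cysteine and is named after its value was seen, read 209, 347 and 4246 and exceeded the limit in sample 5 only. Mat2a was not analysed here.

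Other enzymes use serine or glycine for lipids, haem and glutathione. Of 11 genes 8 were measured and 6 detected. The 4 detected on MOE430A all belong to lipid synthesis, and 0 of these 4 had a 2-fold range, beside 24.7% of all detected genes. Sptlc1, which joins serine to a fatty acid in sphingolipid synthesis, read 1647, 1863 and 1780. Ptdss1, which makes phosphatidylserine, read 10592, 9280 and 6944 and was lowest in sample 5, while Sptlc2 (2067, 2175 and 2952) and Ptdss2 (2029, 1707 and 2192) were highest there. Srr, which turns serine into its mirror form, was detected on MOE430B at 3194, 3200 and 3430. Of the 3 detected there Gss of glutathione synthesis, named after its values were seen, had the widest range, with 3749, 6623 and 8974. That probe set has a name ending in _x_at. The Gss probe set of MOE430A was not detected and read 1016, 1803 and 1800, so samples 4 and 5 were level there.

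For proline, ornithine and glutamate 14 of 17 genes were measured and 7 detected, all 7 on MOE430A, where 4 of the 7 read highest in sample 5, beside 32.0% of all detected genes. Odc1, the first enzyme of polyamine synthesis, had the widest range, with 5453, 8529 and 27273 in samples 1, 4 and 5. Glud1, which interconverts glutamate and 2-oxoglutarate, was highest in sample 4, with 3706, 13563 and 8708. Oat, which links ornithine to the proline intermediate, read 6246, 7320 and 4399 and was lowest in sample 5. Aldh4a1 of proline breakdown was not detected, at 519, 863 and 847. The list's detected median in sample 5 was 0.30, below the 1.46 of the members.

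Among 12 regulators and known Atf4 targets, all measured on MOE430A, 4 were detected, and 8 of the 12 read highest in sample 5, beside the 29.0% of all measured genes. Atf4 itself read 3810, 6257 and 17914 in samples 1, 4 and 5, so sample 5 was 4.70-fold above sample 1. Asns, the asparagine synthetase that Atf4 activates, read 1466, 4714 and 10476, in the order seen for Phgdh and Psat1. Nfe2l2 (5767, 8700 and 8506) and Sesn2 (3414, 2559 and 3608) varied by 1.51-fold and 1.41-fold.

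Myc, a growth regulator with targets among these enzymes, was not detected, with 522, 370 and 2827. Chac1, Trib3 and Ddit3, stress genes downstream of Atf4 that are named after their values were seen, were not detected either. Each of these 3 read highest in sample 5 on MOE430A, at 6530, 2939 and 4659. There Chac1 exceeded the limit in samples 4 and 5, Ddit3 in samples 1 and 5, and Trib3 in sample 5 only. Atf5, of the same list, was also not detected, and was highest in sample 4, with 1340, 1777 and 1436 in samples 1, 4 and 5. The list's median log2 difference of sample 5 was 1.08 over the 4 detected genes and 1.63 over the 12 measured.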

How the data were processed

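Total RNA of 10 T1/2 cells was prepared with RNeasy and labelled with biotin, per the labels. The authors deposited 1 MAS5 signal intensity per probe set and array, per the submitters' processing notes; no version of it is named there. From the values, each array's mean after trimming 2% at each end was 1501 on MOE430A and 1500 on MOE430B. The deposited run records, text and other settings per the file headers, matched all 6 labels. The 2 designs were analysed separately with Python 3.11.15 and pandas 2.3.3.

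Gene names came from the platform annotation, with 20393 of 22690 probe sets of MOE430A and 14674 of 22575 of MOE430B naming 1 gene. RefSeq gene identifiers (GRCm38.p6) matched 20364 and 14499 of these, and the other symbols were kept as annotated. The array files name no genome build. The background list had 83 genes, of which 72 were measured on MOE430A by 95 probe sets and 10 on MOE430B by 12; 3 of the 72 were themselves detected. Signals under 1 were set to 1 before log2. Each gene was represented by 1 probe set, the brightest among those detected or, failing that, the brightest of all, by mean log2 signal.

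Named are all 10 genes, the first 3 of each pathway list as written, the 2 other detected genes of widest range on MOE430A per list, and the 5 genes most like the member of widest range. Some genes under this rule are not reported here. The genes and lists were chosen with earlier results of these data known. Alternatives were other limits, 2 of 3 arrays, other probe set rules, quantile normalisation, pseudocounts of 16 and 64, no filter, and each sample left out. The calculation of sample differences and detection was tested on simulated data. No further per-sample column was present.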

Additional observations from a re-analysis of the deposited data

How the results depend on the processing

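The count of measured members highest in sample 5 on MOE430A was 8 of 8 under quantile normalisation and by the median over a gene's probe sets. It was 7 of 7 without _s_at and _x_at probe sets. Without sample 1 or without sample 4 it was also 8 of 8. A gene highest in sample 5 stays so when another sample is left out, unless its chosen probe set changes. Leaving a sample out could therefore hardly alter this count. All these alternatives were chosen after seeing the data. The members detected on MOE430A, 6 at first, were 2 without _s_at and _x_at probe sets, 1 when most of a gene's probe sets had to be detected, and 5 or 6 under the other alternatives, among them a limit at the 75th percentile of all probe sets, also chosen after seeing the data. Their detected probe sets, 9 at first, were 2 without those endings and 9 to 11 with a sample left out. The detected members with a ratio of at least 2 were 1 without those endings and 2 to 4 with a sample left out.

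On MOE430B, 1 member and 1 probe set, that of Mthfd1l, were detected when 2 of 3 arrays sufficed, and 0 to 1 with a sample left out; with no filter 2 members had a ratio of at least 2.

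The median difference of sample 5 was 0.88 to 1.50 with a sample left out. That of sample 1 was -1.50 to -0.28. That of sample 4 was -0.88 without sample 1 and 0.28 without sample 5, so its sign turned, since it was then set against sample 1 alone. Of 60 recomputed ratios of single members 11 moved by more than the spread between samples, all 11 with a sample left out. The second background list was the one in use, so that alternative was not run. No paired analysis was possible because the samples form 1 group, measured on designs that were scaled apart, and no result comes from a test.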
